A study of Mus musculus with 1183 samples.

Results

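The superoxide dismutases Sod1, Sod2 and Sod3, the catalase Cat, the glutathione peroxidases Gpx1, Gpx3 and Gpx4 and the peroxiredoxins Prdx2, Prdx5 and Prdx6 are 10 of the 18072 genes counted in these cells. They were taken from the count table by symbol, and every one of the 10 symbols had exactly its own row. Superoxide dismutases turn superoxide into hydrogen peroxide, Sod1 mainly in the cytosol, Sod2 in the mitochondrial matrix and Sod3 outside the cell. Hydrogen peroxide is then broken down by catalase in peroxisomes, by glutathione peroxidases with glutathione as the reductant, and by peroxiredoxins, most of which are recharged by thioredoxin. In the lung these enzymes are best known as defences against high oxygen and against the oxidants that phagocytes release.

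Immune cells came from the distal lung of mouse pups exposed to hyperoxia (a raised oxygen level) and taken on postnatal day 7. All groups compared here share that age and that exposure, so no value below measures an effect of oxygen. There were 1183 cells of 16 labelled subtypes, 598 from 1 female and 585 from 1 male animal, which leaves 1 replicate per sex, and sex and individual cannot be told apart. Levels are given in CPM, the reads of a gene scaled by all reads of a subtype in 1 animal.

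In 12 subtypes both animals gave 10 or more cells, and their 24 summed libraries held 10037071 to 235566546 reads. NK cell, IL cell, mast cell II and the single Mac I cell are described by their values, and mast cell II had 1 of its 4 markers, Tpsb2, at or under 3 reads. The labelled names were checked against 4 markers each. In 9 of 15 subtypes all 4 were higher, in both animals, than in every other kind of cell. Subtypes of 1 kind (Mac, DC or mast cell) were not compared with each other, so the check does not separate them. The number was 3 of 4 in Mac V, 2 of 4 in Mac II, Mac III, DC II and IL cell, and 1 of 4 in mast cell II. Among the cells, 4 male cells came from a CD31 gate, in run DC30, and 6 female cells from a gate labelled mesench, in run DC34. These 10 cells entered the Mac IV, Mac V, DC III, neutrophil, NK cell and mast cell libraries. All others came from the CD45 gate, on 2 plates per animal. The first female plate was sequenced in run DC28 and the other 3 plates in run DC35. Platelet markers summed to 4943 CPM in female and 8613 CPM in male Mac IV, of which Pf4 gave 4729 and 8575 CPM, Ppbp 209.2 and 34.08 CPM, Itga2b 4.65 and 1.70 CPM and Gp9 0 and 2.18 CPM. In 6 cells the 5 erythroid markers summed to at least 1000 CPM.

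Gpx1, Gpx3 and Gpx4 are selenoproteins: an in-frame TGA codon inside their coding sequence is read as selenocysteine, the residue at the active site. The transcript of a second row of the count table holds 1 of the stretches around that codon, but for 1 base. The stretches are shown because that row bears on the Gpx4 values below. Each covers 45 bases of the coding sequence of the first GENCODE vM21 transcript, 5′ to 3′, with the TGA in capitals: it is codon 47 of Gpx1 and codon 73 of Gpx3.
Gpx1: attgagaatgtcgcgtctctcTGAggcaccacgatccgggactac
Gpx3: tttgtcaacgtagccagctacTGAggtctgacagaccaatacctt
Gpx4: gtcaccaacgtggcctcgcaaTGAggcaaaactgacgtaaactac

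Which subtypes carry which of these enzymes was asked first. Sod1 and Gpx1 had the highest levels per length of exon, with medians over 15 subtypes of 1943 and 1786 CPM per kilobase. Prdx5 followed at 176.3, Prdx2 at 128.5, Prdx6 at 89.7, Gpx4 at 66.01, Cat at 43.5 and Sod2 at 26.2 CPM per kilobase, while Gpx3 and Sod3 had a median near 0 because most subtypes had almost no read of them. Gpx3 and Sod3 were at 0 in both animals in some subtypes, so their highest level has no ratio to the lowest. Among the 8 other genes the highest subtype mean was 31.7 times the lowest for Prdx5 and 25.5 times for Gpx1, and the ratio was smallest for Gpx4, at 4.20.

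**Figure D1:**
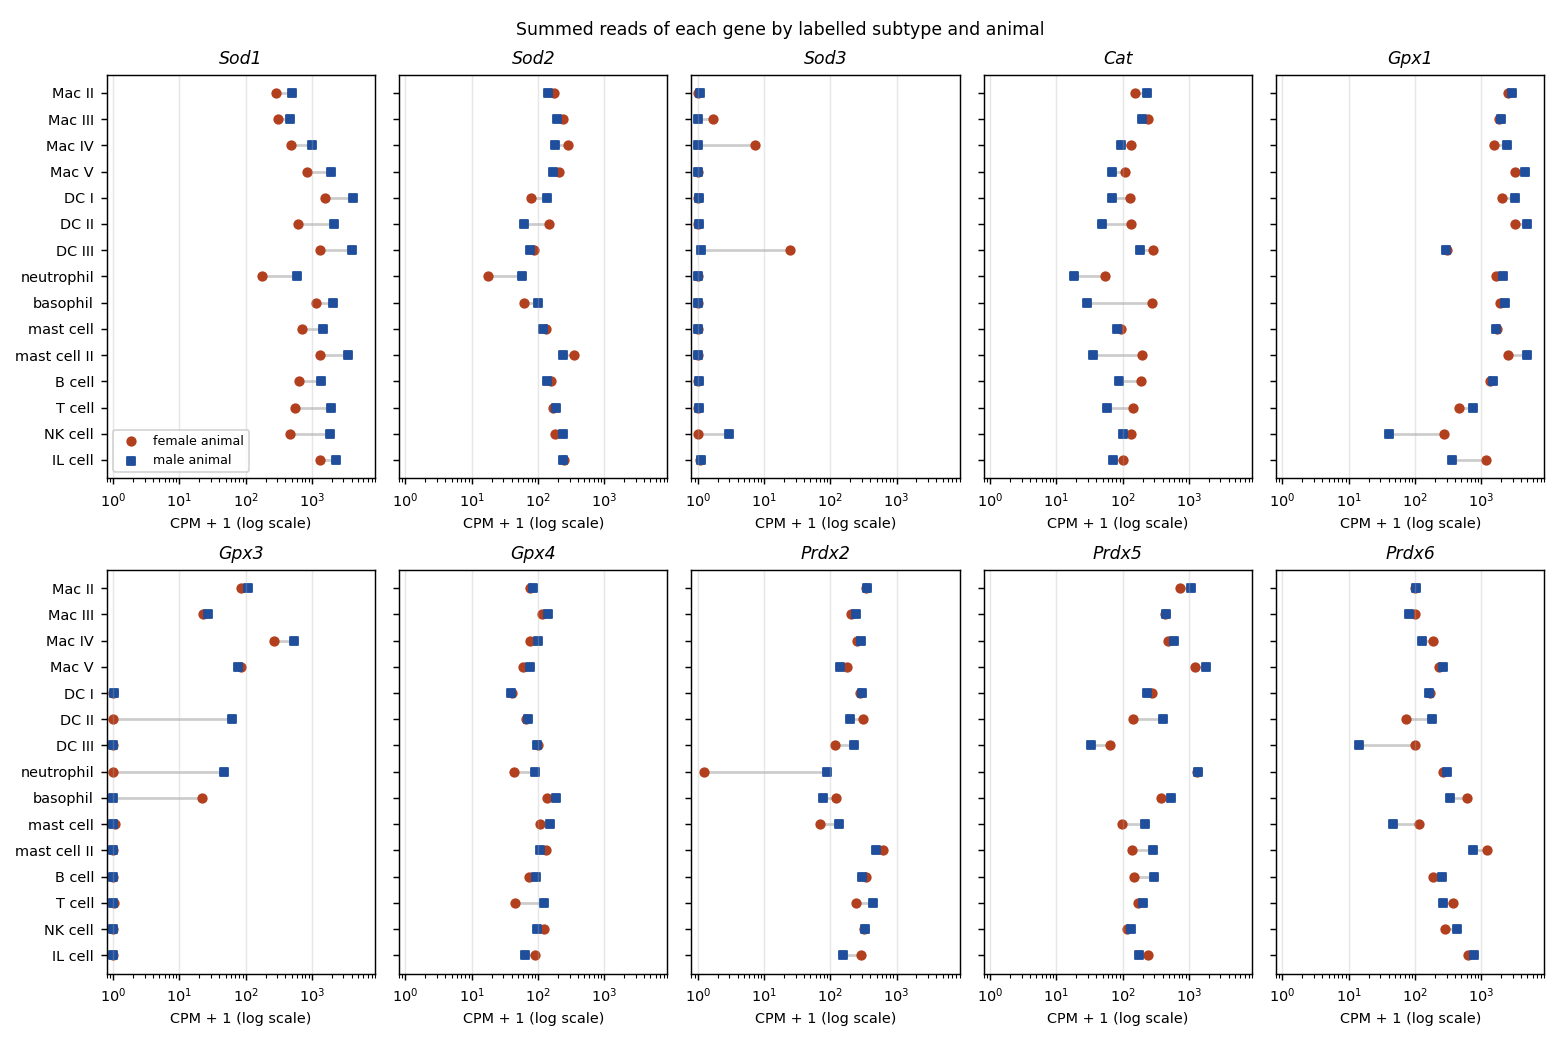
Level of each enzyme gene by labelled subtype, as CPM + 1 on a log axis, with a circle for the female and a square for the male library and a line joining them. Gpx3 is highest in Mac IV in both animals, and Sod1 lies to the right in the male in all 15 subtypes.

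Across the 12 subtypes with enough cells, 6 of the 10 genes varied beyond the difference between the animals (edgeR quasi-likelihood F test, Benjamini-Hochberg adjusted p under 0.05), where 31.5% of the 15488 genes tested did. They were Prdx5 (adjusted p = 5.2e-05), Gpx1 (9.9e-05), Gpx3 (0.0115), Prdx6 (0.0142), Sod3 (0.0229) and Sod1 (0.0494). Gpx4 missed the threshold at 0.0712, Sod2 at 0.163, Cat at 0.370 and Prdx2 at 0.805. All 12 subtypes came from the same animals, so the fit was repeated with the animal as a block. Gpx4 then passed at 0.0333, Sod3 no longer did at 0.166, and Sod1 passed at 3.7e-05. The Sod1 call of the fit without the block was the least stable of the 6: it held in 8 of 24 fits that each left out 1 library, with adjusted p from 0.0317 to 0.0952. Over the 10 other alternatives its adjusted p lay between 3.7e-05 and 0.0873. The Prdx6 call was lost without the female basophil library, at 0.0522, and with run DC35 alone, at 0.0616. With voom the Gpx1 call was lost at 0.740 and the Sod3 call at 0.263; the Sod3 call was also lost with thinned cells.

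Sod1, the copper-zinc dismutase of the cytosol, was highest in DC I and DC III. DC I, which carried Xcr1 and Clec9a, had 1582 CPM (female) and 4153 CPM (male). DC III, marked by Ccr7 and Fscn1, had 1324 and 3994 CPM. The lowest levels were in Mac III (304.9 and 463.6 CPM), neutrophils (177.96 and 597.4 CPM) and Mac II (287.3 and 497.3 CPM), so that both dendritic subtypes exceeded all 3 in each animal. Of the 66 pairs of subtypes, none passed for Sod1 when the tests were adjusted over all genes and pairs, where 3.32% of all such tests did. With the animal as a block 30 pairs passed, against 3.49% of all tests. The largest of these differences were DC III over Mac II, by 3.12 on the log2 scale (adjusted p = 1.9e-04 with the block), and DC I over Mac II, by 2.94 (2.4e-04). No neighbours in the order of levels differed, for Sod1 or for any other of the 10 genes, in the fit without the block. DC I held 10722 CPM of Sftpc in the male against 29.5 CPM in the female, and its part in the male level was not tested.

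The animals differed more evenly in Sod1 than in any other member. The male library was higher in 15 of 15 subtypes, from 1.52 times in Mac III to 4.10 times in NK cell, with a median ratio of 2.33. Of the 3939 genes with a mean of at least 50 CPM, 0.838% were higher in the male in all 15, and by its median difference Sod1 ranked 11. The direction stayed the same in all 15 subtypes with trimmed-mean scaling, with the total taken without the 50 most abundant genes, with cells thinned to 100000 reads, and with the cells of run DC35 alone.

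The plates moved with it as well. In Mac V the CD45 cells of the first and second female plate had 366.1 and 1307 CPM of Sod1, and those of the male plates 1475 and 2268 CPM. In DC III the same plates had 681, 2061, 2707 and 5171 CPM. The second female plate, sequenced in another run than the first, was higher in all 15 subtypes, which 0.584% of the genes also showed. Both male plates exceeded both female plates in 13 subtypes, as 0.0508% of the genes did. The exceptions were Mac II, where male plate 2 had 313.7 CPM against 343.97 CPM on female plate 2, and NK cell, where male plate 1 had 731 against 1058 CPM. With 1 animal of each sex, sex, animal and plate handling cannot be told apart.

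**Figure D2:**
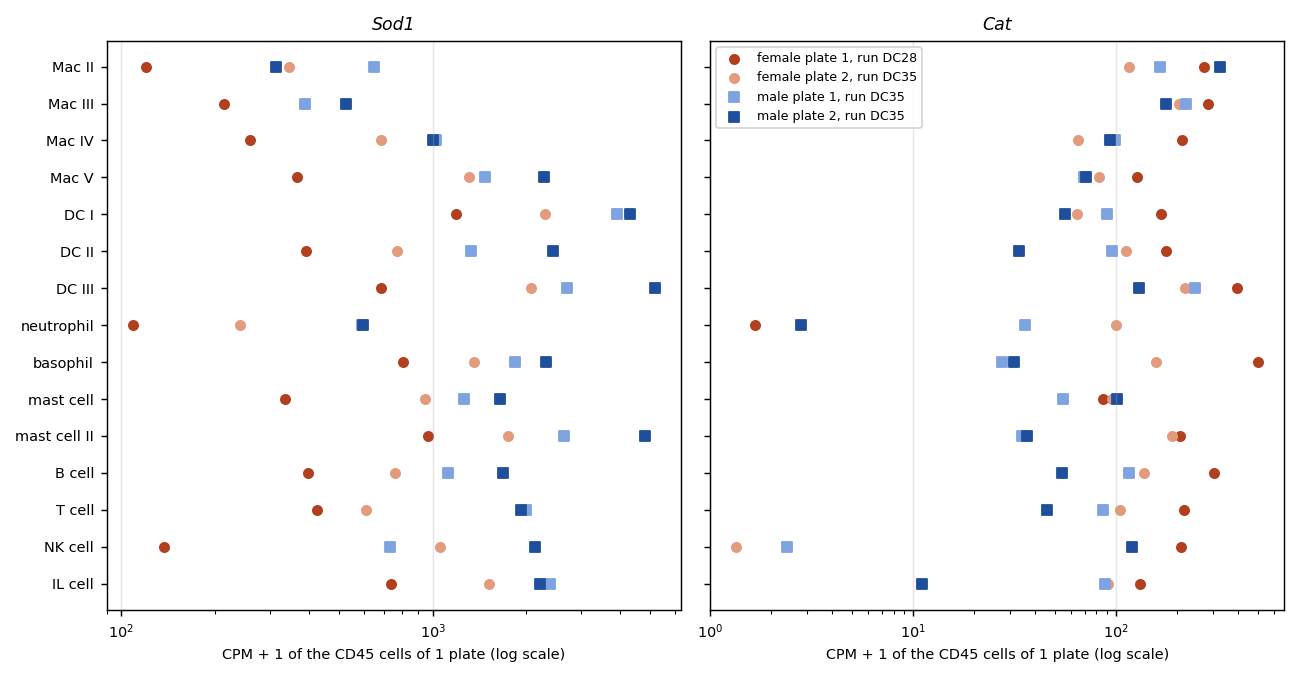
Sod1 (left) and Cat (right) in the CD45 cells of each plate, by subtype, as CPM + 1 on a log axis. Sod1 was lowest on female plate 1 in all 15 subtypes, while Cat on that plate was above female plate 2 in 13 subtypes.

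Sod2, the manganese dismutase of mitochondria, had a highest subtype mean 7.94 times the lowest, where the ratio for Sod1 was 7.46. Sod2 reached 350.8 CPM in female and 235.2 CPM in male mast cell II. Mac IV, the subtype with C1qa, C1qb and C1qc, had 288.2 and 179.7 CPM. With trimmed-mean factors Mac IV had the highest mean, at 229.2 CPM, in place of mast cell II. Neutrophils were lowest, at 16.6 and 57.2 CPM, and only 7.27% of female and 19.2% of male neutrophils had a read once every cell was thinned to 100000 reads. A single cell gave 58.9% of the female neutrophil reads. Mac III against neutrophil gave a log2 difference of 2.13 ± 0.61 (SE) with an adjusted p of 0.0723 in edgeR, 0.0093 in DESeq2 and 0.0361 without the male neutrophil library. Neutrophils had the fewest genes detected of all subtypes, a mean of 1389 and 1637 per thinned cell.

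Sod3, the extracellular dismutase, was close to absent. It had 1016 reads in all cells together, against 1309781 for Sod1. Female DC III had 24.01 CPM, female Mac IV 6.32 CPM and female Mac III 0.67 CPM, where the male libraries had 0.13, 0.02 and 0.02 CPM. Single cells carried these values: 1 cell gave 63.1% of the reads in female DC III, 92.4% in female Mac IV and 98.6% in female Mac III. The variation across subtypes called above therefore rests on a few cells of 1 animal, and without the female DC III library it had an adjusted p of 0.0660.

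Cat, the peroxisomal catalase, was highest in DC III (female 282.1 CPM, male 184.2 CPM) and in Mac III, the subtype with Siglecf and Car4 (239.97 and 194.5 CPM). Neutrophils had 52.7 and 17.4 CPM, and a read was found in 5.45% and 10.3% of them at 100000 reads. None of the 66 pairs passed; the lowest adjusted p was 0.161, for DC III against neutrophil. In contrast to Sod1, the female library was higher in 14 of 15 subtypes, as 3.43% of genes were in at least 14, with Mac II the exception. The gap was widest in basophils, at 278.99 against 28.3 CPM, where the 4 plates gave 500.7, 156.6, 26.5 and 30.2 CPM. Within run DC35 the female was higher in 11 subtypes, and the first female plate was above the second in 13. The part of the plate of run DC28 in the difference between the animals was not tested.

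Gpx1, the cytosolic glutathione peroxidase, was abundant in all myeloid subtypes except DC III. DC II, the subtype with Cd209a and Mgl2, had 3186 CPM (female) and 4882 CPM (male), and Mac V, marked by Ace and Ly6c2, had 3190 and 4625 CPM. The mean was highest in DC II, but in Mac V with trimmed-mean factors, with thinned cells and with run DC35 alone. Without the cells with high globin it was highest in mast cell II, at 4113 CPM. DC III had 308.5 and 295.5 CPM, T cells 459.5 and 745.3 CPM, and NK cells 276.1 and 40.004 CPM. These low values lay below those of all 4 macrophage subtypes, the neutrophils and the basophils in both animals. Of 66 pairs, 21 passed, where 3.32% of all such tests did. DC III was below 10 of the other 11 subtypes, T cells below 9, and B cells below Mac V and DC II. DC III was lower than Mac V by 3.48 on the log2 scale (adjusted p = 9.1e-05) and lower than DC II by 3.37 (1.1e-04).

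Within the thinned cells, every DC I, DC II and mast cell II cell had a read of Gpx1, whereas 63.6% of female and 54.5% of male DC III cells did. In T cells the female median was 1 CPM and the male median 644 CPM, with a read in 46.2% and 80% of cells. T cells thus included cells with and without a read at this depth.

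**Figure D3:**
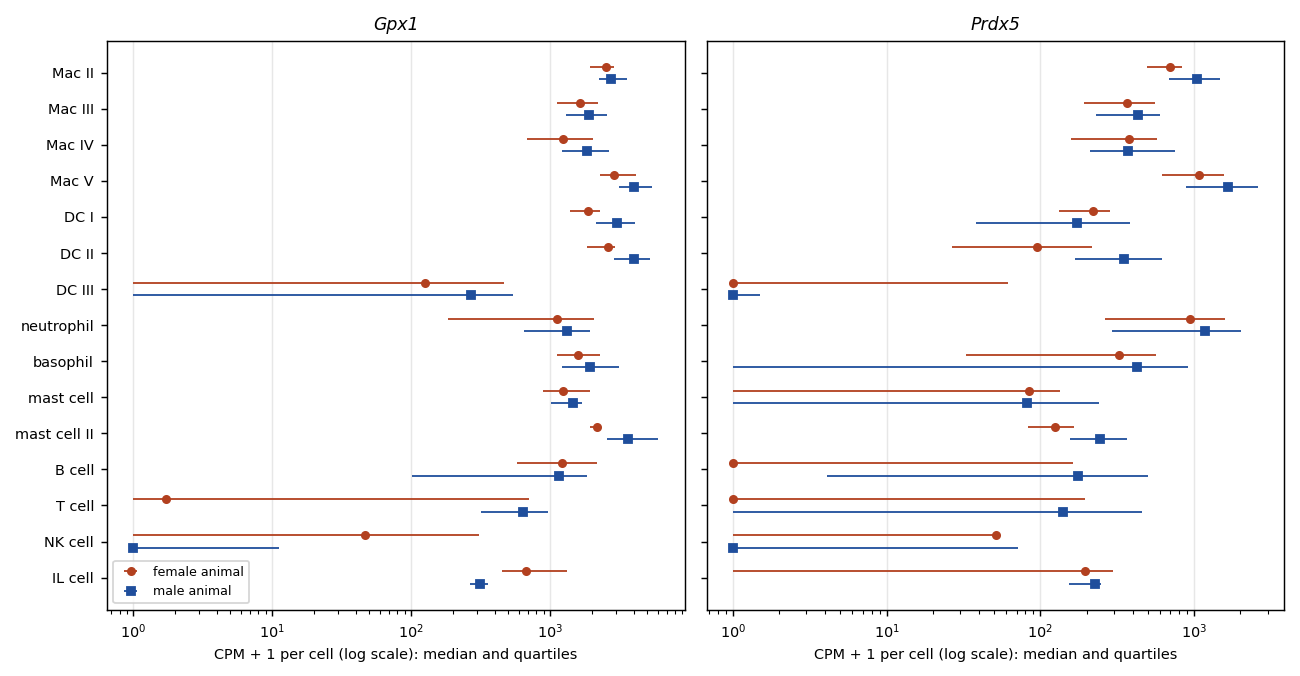
Gpx1 (left) and Prdx5 (right) per cell, as CPM + 1 on a log axis; points are medians and bars the quartiles over the cells of 1 animal. Mac V and neutrophils lead in Prdx5, with medians of 1069 and 939 CPM in the female, and DC III is at a median of 0 in both animals.

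Gpx3, the secreted glutathione peroxidase, was highest in Mac IV, and both animals had it in all 4 macrophage subtypes. Mac IV had 268.6 CPM (female) and 540.2 CPM (male), Mac II, with Ccr2, 84.97 and 107.4, Mac V 84.6 and 75.96, and Mac III 21.5 and 25.8 CPM. No read was found in B cells, NK cells, IL cells, DC III or mast cell II of either animal, and T cells had 1 read. Mac IV was therefore at least 4618-fold higher than B cells in the female and at least 5821-fold higher in the male, against a floor of 3 reads per B cell library. On the 4 plates Mac IV had 312.9, 227.7, 506.6 and 551.8 CPM, above every other subtype on each plate.

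Other libraries with Gpx3 owed it to a few cells. In male DC II 1 cell gave 100% of 1094 reads, in female basophils 1 cell gave 100% of 1029 reads, and in male neutrophils 1 cell gave 85.1% of 2431 reads. In Mac IV, by contrast, 63.5% of female cells (exact binomial 95% interval 50.4 to 75.3%) and 74.7% of male cells (63.6 to 83.8%) had a read at 100000 reads per cell. The shares were 37.04% and 40% in Mac II, 18.2% and 20.5% in Mac V, and 14.4% and 13.5% in Mac III. Median depth was 1341706 and 1489855 reads per cell in Mac IV against 1131743 and 1471919 in B cells, where 0 of 39 and 0 of 25 cells had a read, which allows a share of cells with a read of up to 7.69% and 12% by the limit of 3 cells of the total. Intervals and floors cover counting error only.

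**Figure D4:**
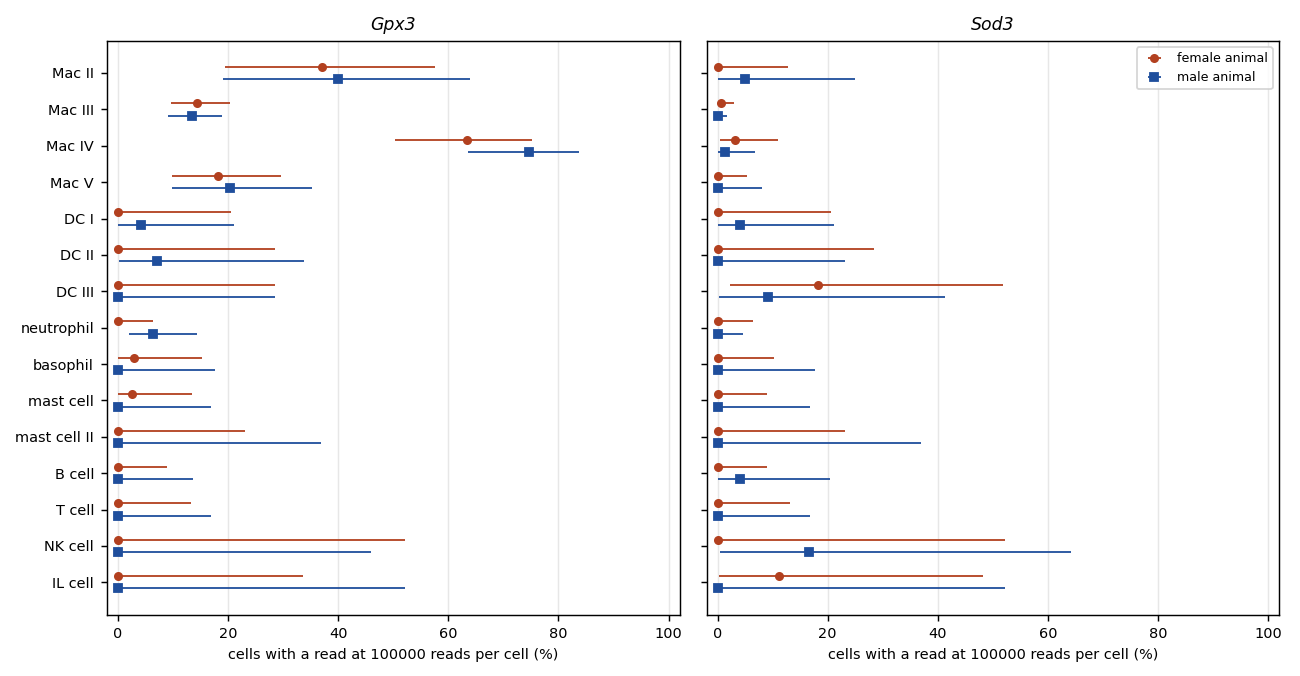
Share of cells with at least 1 read of Gpx3 (left) or Sod3 (right) after thinning each cell to 100000 reads, with exact binomial 95% intervals, by subtype and animal. Gpx3 was found in 63.5% and 74.7% of Mac IV cells and in no B cell, and Sod3 in few cells of any subtype.

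Among the macrophages the Gpx3 gap was not called in the fit over 12 subtypes. Mac III was below Mac IV by 4.06 on the log2 scale with an adjusted p of 0.736 in edgeR and 1.8e-04 with limma's voom. When only these 2 subtypes were fitted, edgeR gave 0.0068. In that smaller fit Mac IV was also above Mac V, by 2.28 (adjusted p = 0.0460). The platelet markers Pf4 and Ppbp were high in Mac IV as well, at the CPM given above with the other platelet markers. In Mac IV 4 endothelial markers summed to 522.9 CPM (female) and 113.7 CPM (male), and the 5 erythroid markers to 9.11 and 2751 CPM. Leaving out the 6 cells with high globin gave a mean Gpx3 level of 406.8 CPM in Mac IV against 404.4 CPM with them. The part of the platelet and endothelial markers in the Gpx3 level was not tested.

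Gpx4, the peroxidase of membrane phospholipids, had the smallest ratio of highest to lowest subtype mean among the genes with such a ratio, at 4.20. Basophils had 138.2 CPM (female) and 187.9 CPM (male) and mast cells 106.2 and 152.2, whereas DC I had 39.8 and 37.9 CPM. The 2 DC I values lay below those of every other library. Basophil over DC I was the 1 pair of 66 that passed, where 3.32% of all such tests did. The difference was 2.41 on the log2 scale (adjusted p = 0.0299). With the block a second pair passed, mast cell over DC I (0.0452).

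The Gpx4 level is uncertain, because a second row shares its sequence. Gpx4 lies on chromosome 10 at chr10:80047166-80056439 (GRCm38, plus strand), and Gpx4-ps2, annotated as a transcribed processed pseudogene, at chr10:45875291-45876086 (plus strand). Of 512 aligned bases of the 2 transcripts 510 were identical (99.61%), and 38.37% of the 946 words of 50 bases in Gpx4 occur unchanged in the pseudogene. Opposite the Gpx4 stretch printed above, the pseudogene differs by C9T, Gpx4's base first, with positions counted from 1 at the 5′ end of the stretch. It is printed with the differing base in capitals.
Gpx4-ps2: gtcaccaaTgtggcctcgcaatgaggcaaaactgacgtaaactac

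The pseudogene row held 548935 reads and the Gpx4 row 142919. Their ratio was 2.62 to 4.41 over the 30 libraries, with a median of 3.71. Of 1022 cells with Gpx4 reads 1018 also had pseudogene reads. The rows moved together: Gpx4-ps2 was likewise lowest in DC I (117.5 and 113.7 CPM) and highest in basophils (579 and 828 CPM), and it varied across subtypes with an adjusted p of 0.0052. How the counting assigned reads that fit both rows is not given in the sources used here. Of the other copies that could share reads, Prdx2-rs3 had 69 reads. Prdx6b had more, and its reads came to 31.6% of the Prdx6 reads in male DC III, a library that enters the Prdx6 values below, and to 0% in female DC III.

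**Figure D5:**
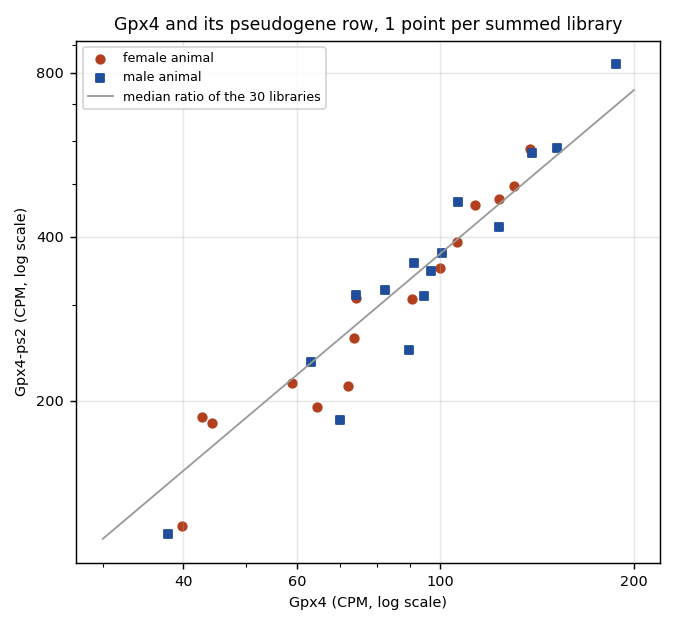
Gpx4 against Gpx4-ps2 in CPM on log axes, 1 point per subtype and animal, with a line at the median ratio of 3.71. The libraries lie along the line from DC I at the lower left to basophils at the upper right.

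Prdx2, a cytosolic peroxiredoxin abundant in red cells, was highest in mast cell II (621 CPM in the female, 492 CPM in the male). Mac II had 345.9 and 352.02 CPM. Neutrophils had 0.24 CPM in the female, from 10 reads, and 88.7 CPM in the male. Only 1 of 55 female and 9 of 78 male neutrophils had a read at 100000 reads per cell, and 1 male cell gave 35.8% of the reads. Of the 66 pairs none passed, and the lowest adjusted p was 0.260. Without the male neutrophil library the variation across subtypes passed at 0.0010 and Mac III was above neutrophils by 9.29 on the log2 scale (2.1e-04), so that 1 library decided both. Male neutrophils also had 6552 CPM of erythroid markers against 32.2 CPM in the female, and 581 CPM of 4 endothelial markers against 21.4 CPM. Cells of the CD31 gate were among the male neutrophils. The part of those cells and of the endothelial markers in the Prdx2 level was not tested. Of the 6 cells with high globin 2 were neutrophils, and leaving the 6 cells out gave a mean of 29.3 CPM in neutrophils against 44.4 CPM with them.

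Prdx5, found in mitochondria, peroxisomes and the cytosol, was highest in Mac V and neutrophils. Mac V had 1223 CPM (female) and 1828 CPM (male), and neutrophils had 1340 and 1384 CPM. Mac II followed at 734 and 1077 CPM, whereas DC III had 63.9 and 32.5 CPM and mast cells 98.5 and 218.02 CPM. Of the 66 pairs 22 passed, where 3.32% of all such tests did. Neutrophils were above DC III by 5.12 on the log2 scale (adjusted p = 1.5e-04), T cells by 3.60 (0.0017), mast cells by 3.43 (0.0023) and B cells by 3.40 (0.0024). Mac V passed against the same 4 subtypes, by 4.82, 3.30, 3.12 and 3.10, and so did Mac II, by 4.01, 2.48, 2.31 and 2.28.

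The level in neutrophils was carried by most of the cells. At 100000 reads 83.6% of female and 83.3% of male neutrophils had a Prdx5 read, against 1.82% and 11.5% for Prdx2 in the same cells. The share with a Prdx5 read was highest in Mac II, at 100%. DC III showed the opposite, with a read in 36.4% and 27.3% of cells and 87.1% of the male reads from 1 cell. Which of the 2 leading subtypes came first depended on the scaling: neutrophils were above Mac V with trimmed-mean factors and with the total taken without the 50 most abundant genes.

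Prdx6, which also has phospholipase activity, was highest in mast cell II (1217 CPM in the female, 763 CPM in the male), then IL cell (627 and 782 CPM) and basophil (619.9 and 336.7 CPM). DC III had 100 and 13.5 CPM, with 2 of 11 cells of each animal holding a read. Of the 66 pairs 5 passed, where 3.32% of all such tests did. In 4 of the 5 basophils were the higher group: over DC III by 3.29 (adjusted p = 0.0163), mast cells by 2.73 (0.0402), Mac III by 2.73 (0.0407) and Mac II by 2.63 (0.0479). Neutrophils over DC III, by 2.69 (0.0432), was the other.

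The 3 comparisons within the macrophages gave no member past the threshold. For Mac III against Mac IV, edgeR called 0 of 10 where it called 0.523% of all genes. Its unadjusted p was under 0.05 for 0 members and for 1477 of the 15488 genes. DESeq2 called 0 members and 4.88% of genes, and voom 3 members (Cat, Gpx3 and Prdx6) and 16.6% of genes. For Mac III against Mac V edgeR called 0, against 0.839% of genes. Its unadjusted p was under 0.05 for 1748 of the 15488 genes. Among these were 4 members (Sod1, Gpx1, Prdx5 and Prdx6), all lower in Mac III. DESeq2 called 1 member and 7.66% of genes, and voom 4 members and 17.2% of genes. With the animal as a block Sod1 passed there, lower in Mac III by 1.76 (adjusted p = 0.0144). For Mac IV against Mac V edgeR called 0, against 0.323% of genes. Its unadjusted p was under 0.05 for 3 members and for 1945 of the 15488 genes. DESeq2 called 1 member and 8.12% of genes, and voom 2 members and 12.6% of genes. The median size of the log2 difference over the 10 members was 0.66, 1.38 and 0.86 in these comparisons, beside 0.97, 1.07 and 1.17 over all genes tested.

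Mac III against neutrophil gave 1 call among the members, where 2.74% of genes were called. Prdx5 was lower in Mac III, at 443 and 457 CPM, by 2.08 ± 0.54 (SE) on the log2 scale (edgeR, adjusted p = 0.0462). That call was lost without any 1 of the 4 libraries involved, with adjusted p from 0.0695 to 0.306, though the difference stayed between 1.94 and 2.16. Mast cell against basophil also gave 1 call, where 3.57% of genes were called: Prdx6 was lower in mast cells (114.6 and 46.2 CPM) by 2.73 ± 0.70 (SE, adjusted p = 0.0391). It too was lost without any 1 of its 4 libraries, at 0.0711 to 0.245, while the animals alone gave differences of 2.43 in the female and 2.84 in the male in that direction. Prdx5 passed there with the block, lower in mast cells by 1.77 (0.0427).

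DC I against DC II gave 0 calls in edgeR, where 0.497% of genes were called. Its unadjusted p was under 0.05 for 1 member (Gpx3, from the 1 male DC II cell) and for 1668 of the 15488 genes. DESeq2 called that 1 member and 8.81% of genes, and voom 0 members and 1.96% of genes.

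Macrophages against lymphocytes, the mean of Mac II to Mac V against that of B and T cells, gave 3 members past the threshold, all higher in macrophages, where 12.6% of genes were called and 6.93% were called higher. Gpx1 was higher by 1.70 ± 0.24 (SE) on the log2 scale (adjusted p = 2.4e-04), Prdx5 by 2.16 ± 0.35 (8.8e-04) and Gpx3 with an adjusted p of 0.0065. The fitted Gpx3 difference depends on the prior count, since lymphocytes had 1 read, and is not given. Gpx1 and Prdx5 held in all 12 fits that left out 1 library. Gpx3 held in 11 and reached 0.0536 without the male T cell library. With voom Gpx1 had an adjusted p of 0.410, in a fit that gave its libraries weights from 1.59 to 888445. Of the 7 members that did not pass, Prdx6 had the lowest adjusted p (0.273), with macrophages lower by 0.71. It passed in that direction with voom (0.0240) and with only the subtypes of the contrast in the fit (0.0151).

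Of 18 further genes of the thioredoxin and glutathione systems, 12 varied across the 12 subtypes, where 31.5% of all genes tested did. Prdx1, another cytosolic peroxiredoxin, was above Mac V in Mac III by 2.23 ± 0.50 (SE, adjusted p = 0.0448) and above neutrophils by 4.76 ± 0.56 (1.8e-04), with 3263 and 2599 CPM in Mac III against 44.2 and 116.6 CPM in neutrophils. Gclc, the catalytic subunit that limits glutathione synthesis, was also above neutrophils in Mac III (0.0213), and had 1785 and 875 CPM in DC III, the highest of all subtypes. Between mast cells and basophils, Prdx4, the peroxiredoxin of the endoplasmic reticulum, was higher in mast cells (105.9 and 194.8 CPM against 0 and 0 CPM; adjusted p = 2.6e-04) and Gsr, glutathione reductase, lower by 3.79 (0.0420). In macrophages against lymphocytes Prdx1, Gsr, Gclm and Srxn1 were higher (adjusted p from 0.0037 to 0.0438) and none lower, where 6.93% of all genes were called higher. In Mac III against Mac IV, Mac IV against Mac V and DC I against DC II none of the 18 passed.

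The number of the 10 genes with a read per cell, at 100000 reads, mostly went with the number of all genes found. Neutrophils had a mean of 3.13 in the female and 3.88 in the male, with 1389 and 1637 genes detected. Mast cell II had 7.79 and 7.38 with 4671 and 4059 genes, and Mac II 7.44 and 7.45 with 3959 and 3785 genes. DC III, with 5.09 and 4.73 of the 10, lay below Mac V (5.88 and 5.82) at a similar gene number, 2473 and 2615 against 2756 and 2627.

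The genes whose log2(CPM + 1) tracked each enzyme best over the 24 libraries were taken from 3728 genes with a mean of at least 50 CPM, as a description of libraries that share animals, plates and depth. Gpx3 was nearest to Itgb5 (Pearson r = 0.87), Laptm4a (0.85) and Atp6v0c (0.84). Gpx1 was nearest to Zfp710 (0.89), Slc35c2 (0.89) and Tm6sf1 (0.88), and Prdx5 to Fgd4 (0.88), Igsf6 (0.87) and Cebpd (0.85). For Prdx2 the first was Smarcb1 (0.93), for Sod2 Ddrgk1 (0.88), for Prdx6 Arhgap45 (0.86) and for Sod1 Ppp1r11 (0.81). The lowest leading values were for Gpx4 (Socs2, 0.72), Cat (Rftn1, 0.78) and Sod3 (Apol7c, 0.69).

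The promoters of Gpx3 and Sod1 are shown, the first because Gpx3 was high in 1 macrophage subtype and the second because Sod1 was higher in the male throughout; each covers the 250 bases before the start site in RefSeq (GRCm38.p6), on the gene's strand. GAGGAA, a core that ETS factors such as PU.1 bind, was searched on both strands and is in capitals where it occurs; it was found in the promoters of 3 of the 8 members matched (Cat, Gpx3 and Sod2) and in 23.1% of 27025 promoters. TGACNNNGC, the core of the antioxidant response element, was found on either strand in 1 of 8, that of Sod1, and in 10.1% of promoters. The first is chr11:54902604-54902853 and the second chr16:90220512-90220761, both on the plus strand.
Gpx3: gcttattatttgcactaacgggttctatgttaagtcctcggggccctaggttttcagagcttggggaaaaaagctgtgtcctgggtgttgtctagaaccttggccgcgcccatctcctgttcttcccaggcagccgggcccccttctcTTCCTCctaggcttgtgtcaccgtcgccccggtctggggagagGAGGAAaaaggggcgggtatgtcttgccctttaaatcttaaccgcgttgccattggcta
Sod1: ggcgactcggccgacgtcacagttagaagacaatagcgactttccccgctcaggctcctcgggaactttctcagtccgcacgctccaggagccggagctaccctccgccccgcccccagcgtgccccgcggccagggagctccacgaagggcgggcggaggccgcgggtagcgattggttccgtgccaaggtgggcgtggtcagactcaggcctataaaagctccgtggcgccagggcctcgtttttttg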

How the data were processed

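Single cells in wells were sequenced after Tn5 tagging, per the labels' protocols. The authors deposited raw read counts per gene and cell; the submitters' processing notes name STAR 2.5.2b, HTSeq 0.10 and GRCh38, a human build name, with no role stated. The labels mention no molecular identifiers, so amplified copies count as separate reads. Cells held 16753 to 7560179 reads (median 1100966).

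Counts were summed per animal and labelled subtype and tested with edgeR 4.0.16 (quasi-likelihood, TMM factors, default expression filter, Benjamini-Hochberg over 15488 genes) on 24 libraries of 12 subtypes, with a common coefficient of biological variation of 1.09. With 2 animals, p-values measure only their spread. Pairs of subtypes were adjusted over genes and 66 pairs. Subtypes are paired by animal; the male minus female differences of 2 subtypes correlated by -0.060 to 0.072 over genes (median 0.027). Shares of cells used 100000 reads per cell, which left out 5 cells; no doublet caller was run. Counts were simulated for Mac III against Mac IV over 15328 genes, with 50 genes changed at each fold. Of the changed genes, 2% were recovered at 4-fold, 22% at 16-fold, 72% at 64-fold and 58% at 256-fold. The direction of change was not tested apart from the fold, so these shares are not rates by fold alone.

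The 10 genes, the 18 further genes and the comparisons were chosen with earlier results of these data known. Named are the 10, those of the 18 that passed, and the 3 genes nearest to a member by Pearson r. DESeq2, voom, other scalings and filters, run DC35 alone, thinned cells and each library left out were alternatives; cells without high globin was added after seeing the data. Gene positions and transcripts are from GENCODE vM21 (GRCm38), promoters from RefSeq. Sod3 and Prdx6 had no promoter entry.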

Additional observations from a re-analysis of the deposited data

Results flagged for a closer look

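Cat moved in opposite directions between mast cells and basophils in the animals. On the log2(CPM + 1) scale mast cells minus basophils was -1.59 in the female and 1.49 in the male, and this difference between the animals was not tested.

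The only cell labelled Mac I, from the male, entered no comparison and had reads of 9 of the 10 genes above the limit of 3 reads. It held 7309 CPM of Gpx1, 908 CPM of Sod1, 744 CPM of Prdx5, 514 CPM of Prdx2 and 370 CPM of Prdx6. Gpx4 was at 131.5 CPM, Cat at 40.2 CPM, Gpx3 at 20.5 CPM and Sod2 at 8.20 CPM.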

How the results depend on the processing

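With 2 animals, a common coefficient of variation of 1.09 and as few as 11 cells per subtype and animal, differences of a few fold were mostly below what the tests could call, and the share of genes called moved strongly with the tool and the samples fitted. No member's difference that edgeR called changed direction under an alternative. Gpx3, which DESeq2 alone called in DC I against DC II and in mast cell against basophil, changed sign when the library with nearly all its reads was left out: from -10.5 to 3.12 without male DC II and from -8.49 to 4.02 without the female basophils. The cause of the other changes was not tested.

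For all genes in turn across subtypes, Mac III against Mac IV, Mac III against Mac V, Mac IV against Mac V, Mac III against neutrophil, mast cell against basophil, DC I against DC II and macrophages against lymphocytes, edgeR called 31.5, 0.523, 0.839, 0.323, 2.74, 3.57, 0.497 and 12.6% of the genes tested. DESeq2 called 48.6, 4.88, 7.66, 8.12, 15.5, 19.3, 8.81 and 25.1%, and voom 49.7, 16.6, 17.2, 12.6, 15.3, 8.67, 1.96 and 25.9%. With all 15 subtypes in the fit the 6 comparisons from Mac III against Mac IV to DC I against DC II gave 0.263, 0.442, 0.167, 1.41, 1.71 and 0.244%, and with run DC35 alone 0.14, 0.266, 0.0797, 0.824, 1.36 and 0.179%. With only the subtypes of the contrast the 7 comparisons gave 12, 9.23, 4.37, 5.37, 2.62, 0.411 and 25.1%. Thinned cells gave 1.91, 2.48, 1.34 and 7.63% in the first 4 of them. With 1 library left out the shares were 20.5 to 30, 0.0303 to 0.231, 0.17 to 0.254, 0.0303 to 0.0608, 0.588 to 3.34, 1.42 to 2.92, 0.114 to 0.47 and 5.92 to 8.25%.

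Of the 10 members, 4 to 7 varied across subtypes with 1 library left out, 0 to 2 differed in Mac III against neutrophil, 0 in the 3 macrophage comparisons, in mast cell against basophil and in DC I against DC II, and 2 to 3 in macrophages against lymphocytes. DESeq2 called 1 member in Mac III against Mac V, 1 in Mac IV against Mac V, 3 in Mac III against neutrophil, 3 in mast cell against basophil and 1 in DC I against DC II. Voom called 3, 4 and 2 members within the macrophages and 2 in Mac III against neutrophil. With only the subtypes of the contrast 1, 3, 1 and 2 members passed in those 4 comparisons and 0 in mast cell against basophil. The single call in Mac III against neutrophil became 0 with all 15 subtypes, with no filter and with run DC35 alone, and 3 with thinned cells. With total counts in place of TMM factors the Prdx5 call was lost there too, and the 1 member called was higher in Mac III. The single call in mast cell against basophil became 0 with total counts in place of TMM factors and with run DC35 alone.

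With the animal as a replicate block 1 member passed in Mac III against Mac V and 2 in mast cell against basophil, and of 66 pairs 30 passed for Sod1, 2 for Gpx4, 29 in place of 21 for Gpx1 and 31 in place of 22 for Prdx5, with no pair lost. Beyond these and the values given beside the results, the block changed no call of a member. Pairs were recomputed only with the block, DESeq2 and all 15 subtypes. DESeq2 called 8 pairs for Sod1, 6 for Sod2, 10 for Sod3, 1 for Cat, 41 for Gpx3, 10 for Gpx4 and 12 for Prdx6, and all 15 subtypes in the fit called 11 Gpx1 pairs. The share called over all genes and pairs was not taken for these fits. Their counts can therefore not be set against a background, and DESeq2 called more of all genes than edgeR in each comparison above. Leaving out the 6 cells with high globin changed 0 of 80 calls. Of 150 subtype levels, 91 moved by more than the spread between the animals when the 50 most abundant genes were left out of the total, and 20 to 29 under the other scalings and subsets that were planned.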
